A study of Mus musculus with 12 samples.

Results

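Aminoacyl-tRNA synthetases are the enzymes that attach each amino acid to its transfer RNA, the step that fixes which amino acid a codon stands for during translation. One set of these genes serves the cytosol, another, also encoded in the nucleus, serves the mitochondrion, and a few genes supply both. Many cytosolic synthetases sit in a multisynthetase complex held together by scaffold proteins, and separate editing proteins remove wrongly attached amino acids. The genes described here were taken by name, as a list of 39 symbols: 18 cytosolic synthetase genes, 16 mitochondrial ones, 2 that serve both compartments (Gars and Kars), the scaffold genes Aimp1 and Aimp2, and the editing protein gene Aarsd1. All 39 were among the 21135 gene symbols of the deposited table, in 227 of its rows, and all 39 passed the filter that left 10636 genes for testing (at least 1 FPKM in at least 3 profiles). FPKM is corrected for the length of the transcript and the size of the library, so levels can be compared between genes. Aarsd1 was singled out because of its differences in these same comparisons. Its values are therefore given as a description, with no test, and counts of tested members run over the other 38.

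The samples were primary microglia, the resident macrophages of the brain, sorted by flow cytometry from mouse midbrain. Control mice (WT) carried the labelled genotype Ppargc1a FF, a conditional allele, and deficient mice (KO) carried Ppargc1a FF CreER, in which a tamoxifen-activated Cre can delete that allele. Ppargc1a encodes PGC-1alpha, a coactivator of genes for mitochondrial biogenesis. Mice of each genotype received PBS or MPTP, a toxin that kills dopaminergic neurons, and all groups, controls included, are labelled 6 weeks after tamoxifen. There are 4 groups, each with 3 numbered samples. The labels do not give the promoter that drives CreER, the animals' age, or whether replicates are different mice, and the p-values below may therefore reflect technical spread alone.

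The 12 columns of the table held 6 profiles not derived from one another, namely replicates 1 and 2 of WT PBS, replicate 1 of WT MPTP, replicates 1 and 2 of KO PBS, and replicate 2 of KO MPTP. Values given below without labels follow that order. The other 6 followed from these by fixed arithmetic in every one of the 227 member rows, and carry no error of their own. The profile KO PBS 2 stands under 2 labels, since KO MPTP 1 is 1.02 times its values in all but 46 of 67354 rows. KO PBS 2 was therefore left out of the comparisons by treatment. Read depth is unknown, and column totals ran from 388861 to 434022 FPKM. The targeted gene Ppargc1a was at 5.70, 6.21 and 5.60 FPKM in the WT PBS columns 1 to 3 and at 2.72, 2.83 and 2.95 in the WT MPTP columns. In the KO columns it was at 0.33, 0.12 and 0.42 under PBS and at 0.22, 0.42 and 0.51 under MPTP, below every WT column. Of 13 microglia and macrophage markers, 12 were in the table and 9 reached 1 FPKM on average, with Cd68 highest at 479 FPKM. The markers that set microglia apart from other macrophages were low: Cx3cr1 averaged 0.05, P2ry12 0.19, Siglech 0.025 and Tmem119 2.02 FPKM. The summed level of the 12 ran from 1696 to 1739 FPKM in WT and from 1570 to 1699 in KO profiles, and its part in the differences below was not tested. In sorted bulk samples, fewer cells of a type and less RNA per cell cannot be told apart. Of the other listed markers, 3 of 6 for neurons, 2 of 4 for dopaminergic neurons and 4 of 5 for astrocytes were in the table. So were 3 of 5 for oligodendrocytes, 3 of 4 for lymphocytes and 3 of 4 for vessels. The neuron, astrocyte, oligodendrocyte and lymphocyte markers found averaged 2.91 FPKM at most (Aldh1l1). Of the vessel markers Flt1 was at 86.9 with Cdh5 listed at 0 in all 6 profiles.

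The cytosolic synthetase genes were expressed at higher levels than most mitochondrial ones. The median over the 18 cytosolic genes was 36.3 FPKM, and the median over the 16 mitochondrial genes was 5.90 FPKM. Sars, the cytosolic seryl-tRNA synthetase gene, was the highest of the cytosolic set, at 149 and 159 FPKM in WT PBS and 157 in WT MPTP, against 143 and 151 in KO PBS and 153 in KO MPTP. Rars, for arginyl-tRNA synthetase, followed at 75.3 and 77.8, 84.2, 75.1 and 79.3, and 78.8 FPKM in the same order. Cars, for cysteinyl-tRNA synthetase, was the lowest cytosolic member, with a mean of 11.6 FPKM. Gars and Kars, which supply glycyl- and lysyl-tRNA synthetase to both compartments, averaged 56.2 and 67.6 FPKM and so lay with the cytosolic set.

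Lars2, the mitochondrial leucyl-tRNA synthetase gene, stood apart from all other members. It was at 731 and 893 FPKM in WT PBS and 668 in WT MPTP, against 980 and 862 in KO PBS and 558 in KO MPTP, above every other member in every profile. The next mitochondrial genes were Tars2 at a mean of 29.9 FPKM, Iars2 at 19.4 and Rars2 at 14.2. At the other end of the set, Mars2, for mitochondrial methionyl-tRNA synthetase, was at 1.65 and 1.5, 1.69, 1.71 and 1.81, and 1.71 FPKM. Ears2, for the glutamyl enzyme, was at 2.71 and 3.06, 2.96, 2.50 and 2.87, and 2.86 FPKM. Sars2, for the seryl enzyme, was at 2.73 and 3.30, 3.06, 2.72 and 3.01, and 3.23 FPKM. These 3 had the lowest means of the members and stayed below 4 FPKM in every profile. Aars2 also stayed below 4 FPKM, at 2.81 to 3.32, and in KO PBS 2 it lay below Ears2 and Sars2.

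**Figure D1:**
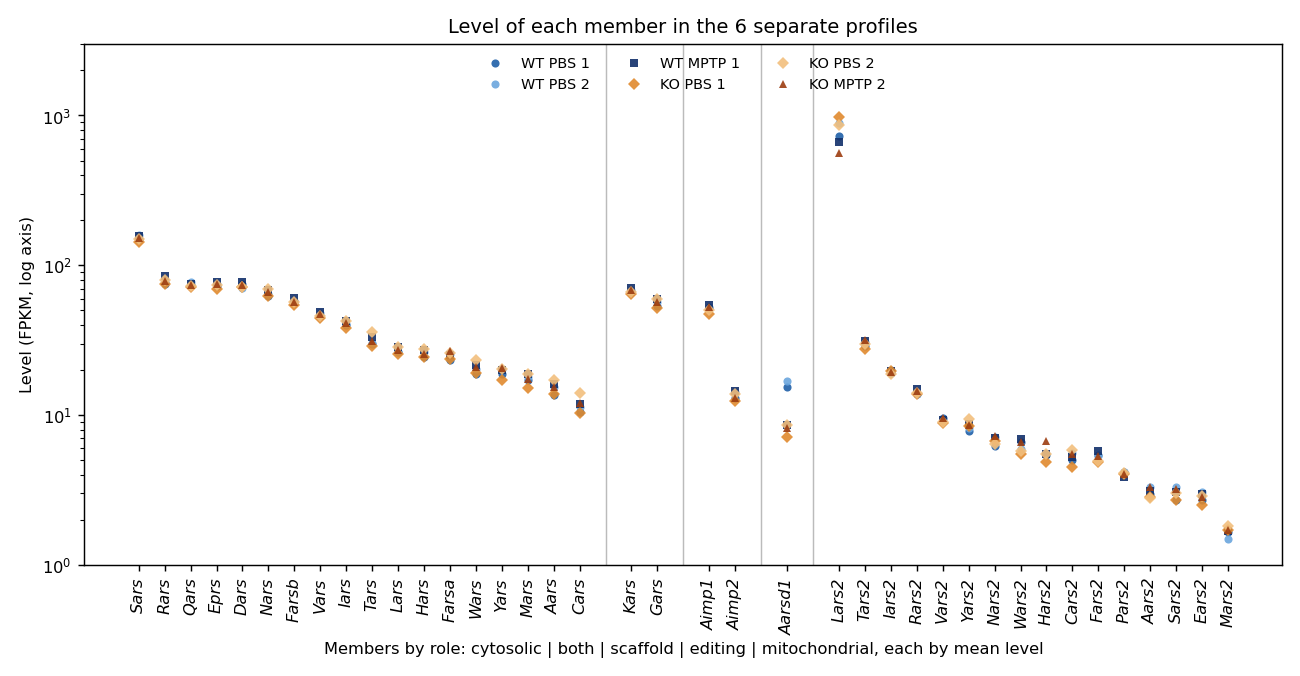
Level of each of the 39 members (FPKM, log axis) in the 6 separate profiles, grouped by role and ordered by mean level within a role; each point is 1 profile. Most members form a tight stack of points, Lars2 lies above all others between 558 and 980 FPKM, and Aarsd1 splits into 2 high WT PBS points and 4 low points.

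The genes of the multisynthetase complex lay mostly in the upper part of this range. Its 11 listed genes, 8 synthetase genes with Kars among them, Aimp1, Aimp2 and the further subunit gene Eef1e1, had a median of 51.5 FPKM and ran from Aimp2 at 13.5 to Rars at 78.4. Aimp1, a scaffold subunit that is also secreted as a cytokine, was at 52.2 and 52.4 FPKM in WT PBS and 54.1 in WT MPTP, against 47.5 and 50.0 in KO PBS and 52.8 in KO MPTP. Aimp2, the scaffold subunit on which the complex assembles, was at 13.0 and 14.3, 14.5, 12.4 and 13.9, and 13.0 FPKM. For both scaffold genes WT MPTP was the highest profile and KO PBS 1 the lowest, by at most 1.17-fold. Over all genes tested these were also the commonest highest and lowest profiles (31.6% and 42.0%).

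Members varied little across the profiles. The SD of log2(FPKM + 1) over the 6 profiles had a median of 0.0732 over the 38 members without Aarsd1, beside a median of 0.0712 over all genes tested. The highest profile was under 1.5 times the lowest for 37 of the 38, Lars2 being the exception at 1.76 times. Without Lars2, that ratio had a median of 1.15 over 37 genes and ran from 1.06 for Iars2 to 1.37 for Hars2. Aarsd1 had an SD of 0.486, and 20 of the 10636 genes tested (0.188%) reached that spread. Because Aarsd1 was chosen for its differences, this rank describes the choice and supports nothing.

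Aarsd1 encodes a protein related to the editing domain of alanyl-tRNA synthetase, which removes serine wrongly attached to alanine tRNA. It was at 15.5 and 17.0 FPKM in WT PBS and 8.54 in WT MPTP, against 7.11 and 8.56 in KO PBS and 8.23 in KO MPTP. The 2 WT PBS profiles were thus high and the other 4 lay close together between 7.11 and 8.56, with WT MPTP inside the range of the KO profiles. The difference between the 2 WT PBS profiles was 0.12 on the log2(FPKM + 1) scale, and that between the 2 KO PBS profiles was 0.24. On that scale WT MPTP was lower than WT PBS by a difference of -0.85, and KO PBS 1 was lower than WT PBS by a difference of -1.09. KO MPTP differed from KO PBS 1 by 0.19 and from WT MPTP by -0.05. With treatments pooled, KO profiles differed from WT profiles by -0.66. A single row of the table carried the gene: row 4 of its 4 rows held 15.3 and 16.7 FPKM in WT PBS and 8.05 in WT MPTP, against 6.65 and 8.01 in KO PBS and 7.65 in KO MPTP, and each other row stayed at or below 0.38 FPKM.

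No alanyl-tRNA synthetase gene had that pattern. Aars, the cytosolic alanyl-tRNA synthetase gene, was at 13.6 and 15.3 FPKM in WT PBS and 16.1 in WT MPTP, against 13.9 and 17.2 in KO PBS and 15.5 in KO MPTP, so WT PBS was not high. Aars2, its mitochondrial counterpart, was at 2.97 and 3.32, 3.12, 2.86 and 2.81, and 3.29 FPKM. In the WT MPTP and WT PBS comparison, the largest difference of any other member was 0.27 in size (Lars2; 0.13 without WT PBS 2) and the second was 0.15 (Tars), against 0.85 for Aarsd1. In KO PBS against WT PBS these were 0.28 (Lars2) and 0.20 (Cars2), against 1.09. In KO MPTP against KO PBS the order turned: Lars2 at 0.81 and Hars2 at 0.38 exceeded Aarsd1 at 0.19. These comparisons share profiles with one another, so their values for a gene are not independent.

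Genes with related roles gave no such split either. Prorsd1, related to enzymes that proofread proline tRNA, was at 19.1 and 19.5 FPKM in WT PBS and 20.9 in WT MPTP, against 18.5 and 18.5 in KO PBS and 19.4 in KO MPTP. The D-aminoacyl-tRNA deacylase gene Dtd1 averaged 9.39 FPKM and its relative Dtd2 averaged 7.35. Ankrd16, which encodes a cofactor of alanyl-tRNA synthetase editing, was at 10.2 and 10.6 FPKM in WT PBS and 9.40 in WT MPTP, against 9.06 and 9.82 in KO PBS and 13.6 in KO MPTP. Its KO MPTP profile was the high one, with a difference from KO PBS 1 of 0.54 ± 0.10 (SE; limma, adjusted p = 0.0791), which missed the threshold of 0.05.

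The transcripts around Aarsd1 were also read, because the annotation places a readthrough gene over it. Gm27029, which joins the neighbouring Ptges3l to Aarsd1 in the GENCODE annotation, shares 1254 bases of the Aarsd1 transcript at 99.9% identity on the same strand. Gm27029 was at 1.14 and 1.34 FPKM in WT PBS and 1.40 in WT MPTP, against 1.15 and 0.94 in KO PBS and 1.17 in KO MPTP, so it was not high in WT PBS. How the deposited values divide reads between the 2 genes is not given in the sources used here, and the level of Aarsd1 is uncertain to that extent. Ptges3l was at 3.09 and 2.93, 2.80, 2.84 and 2.95, and 3.03 FPKM. Rundc1, another neighbour, was at 4.41 and 4.51, 4.53, 3.86 and 4.25, and 4.27 FPKM. G6pc, on the other side, stayed at or below 0.05 FPKM. The other annotated neighbours within 3 genes on each side (Gm51949, Gm25475 and Mir6929) were not analysed here.

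**Figure D2:**
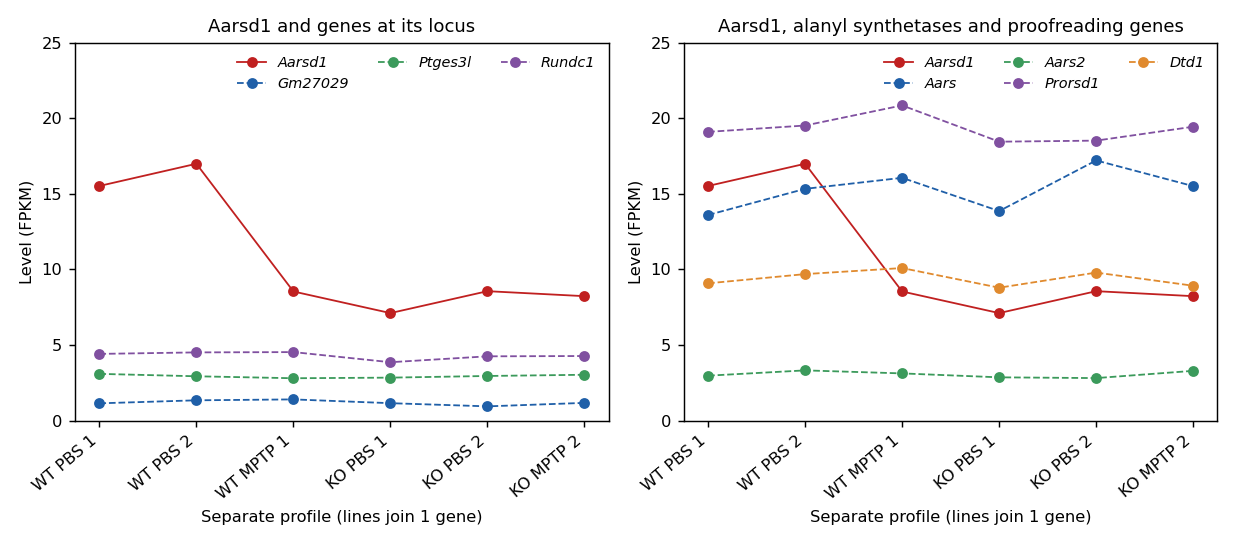
Level (FPKM, linear axis) in each of the 6 separate profiles; lines join the values of 1 gene. Left, Aarsd1 with the overlapping Gm27029 and the neighbours Ptges3l and Rundc1; right, Aarsd1 with the alanyl synthetase genes Aars and Aars2 and the proofreading genes Prorsd1 and Dtd1. Aarsd1 drops from 15.5 and 17.0 FPKM in WT PBS to 8.56 or less in the other 4 profiles, and the other genes show no such step.

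MPTP in control microglia was compared first. None of the 38 members passed the test (limma on log2(FPKM + 1), Benjamini-Hochberg adjusted p under 0.05), where 0.254% of all genes tested did. At an unadjusted p under 0.05 the count was also 0 of 38, against 286 of 10636 genes. The median difference of the members was 0.07, and 32 of 38 were above 0; over all genes the median was 0.04 and 73.0% were above 0. Among cytosolic genes 17 of 18 were above 0, with Tars, for threonyl-tRNA synthetase, highest at 0.15; after TMM rescaling 14 of 18 were above 0 and after quantile normalization 15 of 18. Lars2 had the largest difference of the 38 in size, -0.27 ± 0.13 (SE; limma, adjusted p = 1). That value depended on which WT PBS profile it was set against: with KO PBS 2 counted as KO PBS, Lars2 gave -0.42 without WT PBS 1 and -0.13 without WT PBS 2, where Aars (0.22) and Tars (0.16) were larger in size.

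MPTP in the deficient microglia rested on 1 profile on each side, KO PBS 1 and KO MPTP 2, with the spread taken from the WT PBS pair. None of the 38 members passed, where 0.291% of all genes tested did. At an unadjusted p under 0.05 there were 3 of 38 members (Lars2, Hars2 and Yars) and 983 of 10636 genes. Lars2 came nearest to the threshold, with 980 FPKM in KO PBS 1 and 558 in KO MPTP 2, a difference of -0.81 ± 0.14 (SE; limma, adjusted p = 0.0631). It passed in 5 of 15 alternatives, over which its adjusted p ran from 0.00436 to 0.876; it passed with KO PBS 2 counted as KO PBS (adjusted p = 0.0381) and did not when KO PBS 1 was then left out (adjusted p = 0.319). Hars2, the mitochondrial histidyl-tRNA synthetase gene, was at 5.41 and 5.48 FPKM in WT PBS and 5.49 in WT MPTP, against 4.89 and 5.50 in KO PBS and 6.68 in KO MPTP, a difference of 0.38 ± 0.11 between KO MPTP and KO PBS 1 (SE; limma, adjusted p = 0.298). Over 15 alternatives the Hars2 difference ran from 0.20 to 0.44, and it was 0.24 with KO PBS 2 as the only KO PBS profile. KO MPTP was the high profile for Hars2 and lay outside the range of the other 5. The median of the 38 was 0.10, beside 0.09 for all genes, and both lay within 0.01 of 0 after TMM rescaling or quantile normalization. All 18 cytosolic genes were above 0 as deposited, 8 of 18 were after either rescaling, and 7 of 18 were with KO PBS 2 as the only KO PBS profile.

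No member passed the test between the genotypes under either treatment. In KO PBS 1 against WT PBS, 0 of the 38 members passed, where 0.226% of all genes did, and 0 of 38 had an unadjusted p under 0.05, against 473 of 10636 genes. The members' median difference was -0.07 and 6 of 38 were above 0, beside -0.06 and 22.1% for all genes. All 18 cytosolic genes were below 0 as deposited, with Mars, for methionyl-tRNA synthetase, lowest at -0.18, but 9 of 18 were above 0 after TMM rescaling and 10 of 18 after quantile normalization. The direction also rested on KO PBS 1: with KO PBS 2 as the only KO PBS profile 13 of 18 were above 0, Mars at 0.11, Aars at 0.24, Tars at 0.25 and Cars at 0.34. Under MPTP, 0 of 38 passed, where 0.132% of all genes did, and the counts at an unadjusted p under 0.05 were 0 of 38 and 385 of 10636. The members' median was -0.04 with 12 of 38 above 0, beside -0.01 and 45.8% for all genes.

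The change under MPTP was then compared between the genotypes by an interaction term. None of the 38 members passed, where 0.0752% of all genes did, and 2 of 38 (Lars2 and Hars2) had an unadjusted p under 0.05, against 551 of 10636 genes. Lars2 gave -0.54 ± 0.19 (SE; limma, adjusted p = 0.727) and Hars2 0.37 ± 0.14 (SE; limma, adjusted p = 0.794). The MPTP difference of the members was thus not shown to differ between genotypes.

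**Figure D3:**
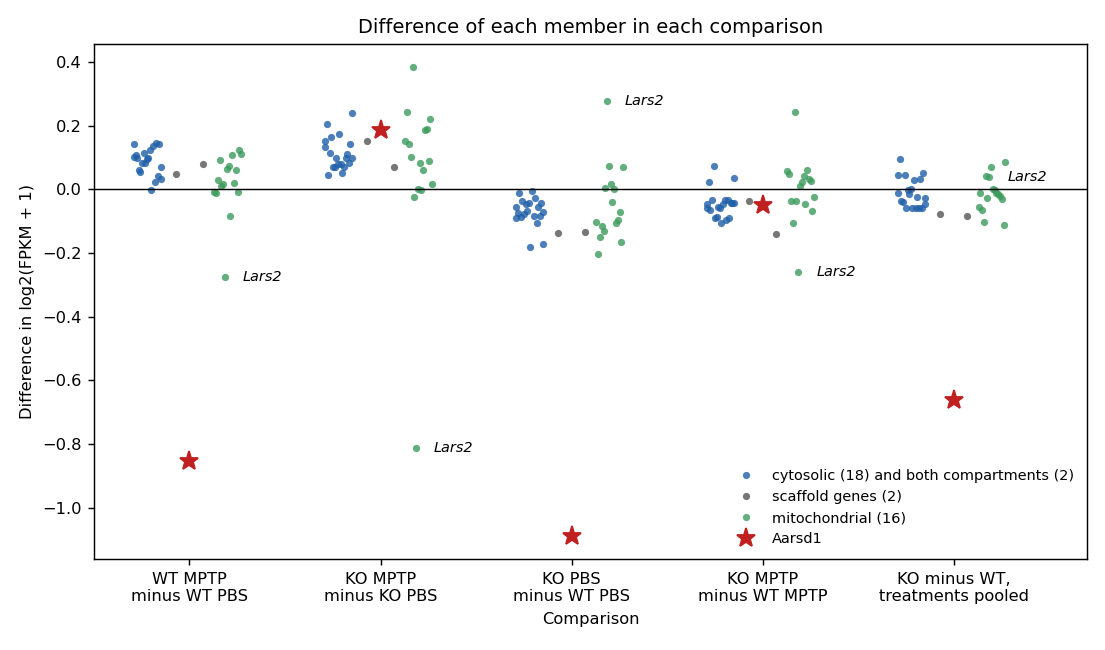
Difference in log2(FPKM + 1) of each member in 5 comparisons; each point is 1 gene, coloured by role, and the star is Aarsd1, which is given without a test. The 38 other members lie near 0 with Lars2 the farthest in 4 of the 5 comparisons, while the star lies at -0.85, -1.09 and -0.66 in 3 of them.

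With treatments pooled, 3 WT and 3 KO profiles could be compared, KO PBS 2 included. None of the 38 members passed, where 0.0752% of all genes did, and the counts at an unadjusted p under 0.05 were 0 of 38 and 372 of 10636. Wars2, for mitochondrial tryptophanyl-tRNA synthetase, had the largest difference of the 38: it was at 6.64 and 5.95 FPKM in WT PBS and 6.93 in WT MPTP, against 5.50 and 5.79 in KO PBS and 6.57 in KO MPTP, a difference of -0.11. Its groups overlapped, since KO MPTP lay above WT PBS 2. In 2 members, Qars and Fars2, every WT profile lay above every KO profile, which held for 7.19% of all genes tested. Qars, for glutaminyl-tRNA synthetase, ranged from 74.0 to 76.9 FPKM in WT and from 71.1 to 73.7 in KO, and Fars2, for mitochondrial phenylalanyl-tRNA synthetase, had means of 5.51 and 5.06 FPKM. In Mars2 every KO profile lay above every WT profile, which held for 0.818% of all genes. None of the 3 passed the limma test (adjusted p = 0.997 for each).

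A further pattern among the members lay between profiles of 1 label, KO PBS and, with smaller cytosolic medians, WT PBS. KO PBS 1 was the lowest of the 6 profiles for 24 of the 38 members (63.2%), beside 42.0% of all genes tested. KO PBS 2 was the highest for 12 of the 38 (31.6%), beside 8.62% of all genes, and for 8 of the 18 cytosolic genes. On the log2(FPKM + 1) scale, KO PBS 2 minus KO PBS 1 had a median of 0.14 over the cytosolic genes (17 of 18 above 0). It was 0.04 over the mitochondrial genes (12 of 16 above 0) and 0.03 over all genes (6775 of 10636 above 0). WT PBS 2 minus WT PBS 1 gave 0.06 over the cytosolic genes (15 of 18 above 0) and 0.05 over the mitochondrial genes (11 of 16). Over all genes it gave 0.01 (5547 of 10636 above 0). After TMM rescaling the KO PBS medians were 0.11 over the cytosolic genes (16 of 18 above 0) and 0.01 over the mitochondrial genes (8 of 16), and after quantile normalization 0.10 (15 of 18) and 0.0021 (8 of 16). In the WT PBS pair 15 of the 18 cytosolic genes were above 0 after either rescaling, with medians of 0.05 (TMM) and 0.04 (quantile). Its mitochondrial medians were 0.05 (11 of 16) and 0.06 (12 of 16). These scalings of the pairs were added after seeing the data. KO PBS 1 had the lowest column total, 388861 FPKM, and KO PBS 2 the next lowest, 389882 FPKM. KO PBS 2 is also the profile that stands under 2 labels. These are differences between single profiles of 1 label, given with no test.

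Single members moved by different amounts within the KO PBS pair. Cars was at 10.4 and 11.4 FPKM in WT PBS and 11.8 in WT MPTP, against 10.3 and 14.0 in KO PBS and 12 in KO MPTP, so KO PBS 2 was its high profile by a difference of 0.41 from KO PBS 1. Tars was at 29.9 and 30.3, 33.4, 29.0 and 35.9, and 31.4 FPKM, with a difference of 0.30. Wars, for tryptophanyl-tRNA synthetase, was at 18.9 and 20.4, 21.7, 19.0 and 23.3, and 21.1 FPKM, with a difference of 0.28. Gars was at 53.4 and 56.7, 59.2, 51.6 and 59.9, and 56.7 FPKM, with a difference of 0.21. Kars, at 66.6 and 68.6, 71.0, 64.3 and 66.3, and 68.9 FPKM, had a difference of 0.04. Aars gave 0.29, Mars 0.29 and the mitochondrial cysteinyl gene Cars2 0.33, whereas Lars2 went the other way at -0.18. Cars, Tars, Wars, Mars, Cars2, Hars2, Yars, Qars and Fars2 were named after their values were seen.

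Genes that respond to uncharged tRNA were read from a list of 19, which holds the kinase GCN2 (Eif2ak4), the transcription factor ATF4 and known targets of it; 17 of the list were tested. None passed in any of the 6 comparisons, and few had an unadjusted p under 0.05. The counts were 2 for MPTP in WT (11.8%, beside 2.69% of all genes), 2 for MPTP in KO (11.8% beside 9.24%) and 3 for genotype under PBS (17.6% beside 4.45%). They were 0 for genotype under MPTP (beside 3.62%), 0 for the interaction (beside 5.18%) and 1 with treatments pooled (5.88% beside 3.50%). Between the KO PBS profiles the list had a median of 0.17, with 15 of 17 above 0, beside 0.06 and 12 of 17 between the WT PBS profiles. Over all genes these medians were 0.03, with 6775 of 10636 above 0, and 0.01, with 5547 above 0. In scalings also added after seeing the data, the list's KO PBS median was 0.13 after TMM rescaling (14 of 17 above 0). After quantile normalization it was 0.13 (13 of 17). Its WT PBS median was 0.05 after either (11 of 17). Trib3 and Ddit4, stress-response genes, were highest in WT PBS 1: WT PBS 2 minus WT PBS 1 was -0.76 and -0.86, and the KO PBS difference was 0.45 and 0.17. The asparagine synthetase gene Asns was at 19.0 and 20.9 FPKM in WT PBS and 22.4 in WT MPTP, against 18.3 and 26.0 in KO PBS and 22.3 in KO MPTP. Mthfd2, a mitochondrial folate enzyme gene, was at 6.18 and 7.50, 8.04, 6.68 and 11.8, and 8.21 FPKM. Atf4 was at 49.7 and 65.9, 71.4, 57.4 and 74.5, and 70.1 FPKM, so its WT PBS pair and its KO PBS pair differed by like amounts (0.40 and 0.37). KO PBS 2 was the highest profile for 7 of the 17 (8.62% of all genes tested) and the lowest for 2 (22.3% of all genes tested). Asns and Mthfd2, for which it was the high profile as for Cars and Tars, had the largest KO PBS differences of the list (0.48 and 0.74). Atf5 and Nupr1 lay slightly below 0 there, at -0.01 and -0.02. Asns, Mthfd2 and Atf4 were not among the genes set beforehand to be given by profile. The 11 partners of tRNA charging (among them elongation factors and amidotransferase subunits) also held no gene that passed in any comparison, and neither did Tarsl2 (4.76 FPKM), a synthetase-like gene outside the 39.

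**Figure D4:**
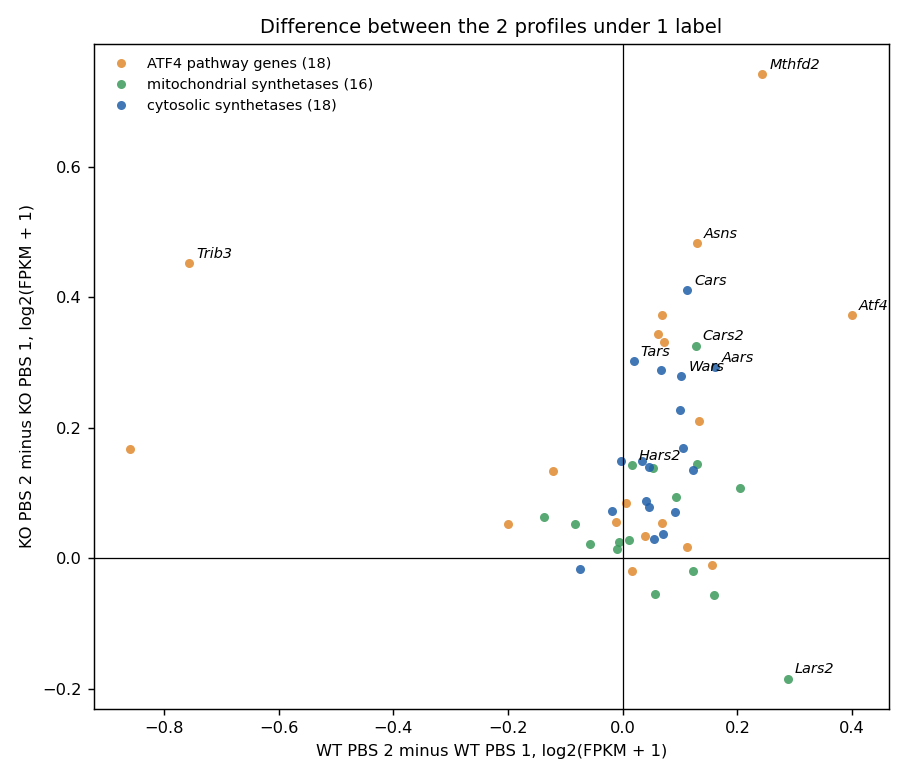
Difference between the 2 KO PBS profiles (vertical) against that between the 2 WT PBS profiles (horizontal), both in log2(FPKM + 1), for 18 cytosolic synthetase genes, 16 mitochondrial ones and the 18 genes of the uncharged tRNA and ATF4 list in the table; each point is 1 gene. Most cytosolic points lie above 0 on both axes, up to Cars at 0.41 on the vertical one. Asns, Mthfd2 and Trib3 (0.45, at -0.76 on the horizontal axis) lie higher still, and Lars2 lies below 0 on the vertical axis.

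The promoters of the members were searched for the composite element read by ATF4 with a C/EBP partner, TGATGNAA, on both strands of the 250 bases before each gene's start (RefSeq, GRCm38.p6). Of the 39 members, 29 matched a promoter, and 3 of them (10.3%) held the element, namely Aars, Gars and Tars. It was found for 3.91% of 27025 genes with a promoter of that length, and the search was made with the pair's values known. In Gars and Tars the match lay on the strand opposite the gene, 30 and 15 bases before the start. The stretches of these 2 are shown as examples of the element in its place, and capitals mark the match. That of Aars is not shown, since its match did not lie wholly in a stretch free of annotated exons. The Gars stretch holds all 250 bases searched, and the Tars stretch leaves out bases under an annotated exon. Each is written 5′ to 3′ on the gene's strand.
Gars, chr6:55037751-55038000, plus strand: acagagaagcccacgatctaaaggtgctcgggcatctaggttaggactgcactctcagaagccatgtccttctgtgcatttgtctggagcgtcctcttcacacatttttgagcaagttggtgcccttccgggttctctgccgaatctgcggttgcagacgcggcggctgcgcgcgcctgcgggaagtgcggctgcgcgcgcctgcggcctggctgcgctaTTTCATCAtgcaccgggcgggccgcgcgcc
Tars, chr15:11399666-11399908, minus strand: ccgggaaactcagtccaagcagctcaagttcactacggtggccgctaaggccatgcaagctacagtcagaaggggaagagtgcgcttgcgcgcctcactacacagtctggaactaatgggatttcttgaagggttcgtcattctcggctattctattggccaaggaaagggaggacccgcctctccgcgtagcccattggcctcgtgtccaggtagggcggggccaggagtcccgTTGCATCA
A match says only that these letters stand in the window. Cars was not among the 29, and the promoter of Aarsd1 did not hold the element. Of the other motifs searched, the CCAAT box (CCAAT) stood in 13 of 29 members (44.8%) and 37.5% of genes, the E-box (CACGTG) in 3 (10.3%) and 6.86%, the NRF1 motif (GCGC, 2 bases of any kind, GCGC) in 2 (6.90%) and 5.64%, and the cyclic AMP element (TGACGTCA) in 0 and 1.77%.

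Shared sequence limits how far some members can be told from other genes. At 100 bases or more and 95% identity, 14 of the 39 members shared transcript sequence with another annotated gene. The sharing was on the same strand for 3: Aarsd1 with Gm27029, Aars with Exosc6 over 1326 bases, and Iars with the pseudogene Gm4849 over 1656 bases at 96.0%. It was on the opposite strand for 11, among them Iars2 with Rab3gap2 over 2034 bases and Hars with Hars2 over 195. The sources used here do not state a strand-specific count, so reads from such overlaps cannot be told apart. Lars2 shared only shorter stretches on the same strand of its transcript of 3894 bases. These were 72 bases at 98.6% with Gm15564 (bases 3278 to 3349) and 50 bases at 96.0% with AA474408 (bases 3163 to 3212). Gm15564 was at 0.62 and 1.52 FPKM in WT PBS and 0.51 in WT MPTP, against 0.77 and 0.47 in KO PBS and 0.47 in KO MPTP. Gm26917, a noncoding RNA gene picked after its values were seen, was at 37.3 and 44.7, 38.4, 48.7 and 42.2, and 36.8 FPKM, highest in KO PBS 1 and lowest in KO MPTP as Lars2 was. Rn18s-rs5, a ribosomal RNA gene, did not follow that order: it was at 285 and 287 FPKM in WT PBS and 246 in WT MPTP, against 265 and 216 in KO PBS and 240 in KO MPTP. No stretch shared by Lars2 and Gm26917 was found in the search at 95% identity. The part of Gm15564, AA474408, Gm26917 or Rn18s-rs5 in the level of Lars2 was not tested.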

How the data were processed

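RNA-seq of 12 labelled mouse microglia samples in 4 groups was read from 1 deposited table of 67355 rows. The submitters' processing notes name CASAVA 1.5, Bowtie 0.12.7, TopHat, Cufflinks and the build mm9, without saying what each did. The header names no unit, and the values the authors deposited are treated here as FPKM because Cufflinks is among the tools. Every value column was assigned to a sample by its name. Rows were summed per symbol, without 1 row that holds text. Sums were filtered at 1 FPKM in at least 3 of 6 separate profiles and tested as log2(FPKM + 1) with limma 3.58.1 (trend) in R 4.3.3, adjusted over 10636 genes. The comparisons by treatment used 5 profiles with 1 residual degree of freedom, and the pooled one 6 profiles with 4. Alternatives changed the pseudocount, the filter, the scaling and the profiles used. The scripts were tested on simulated data. The members and lists were chosen with earlier results of these data known. Levels by profile are given for Aarsd1, the 3 highest and 3 lowest synthetase genes, the largest difference per comparison, Aars, Aars2, Aimp1, Aimp2, Gars, Kars and the nearest neighbours of Aarsd1, and for members named as chosen later. Transcript sequences (GENCODE) were compared with BLAST 2.17.0; sequences and promoters are of GRCm38.p6, not the authors' build.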

Additional observations from a re-analysis of the deposited data

Results flagged for a closer look

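Aarsd1 stood out because its MPTP difference was not alike in the 2 genotypes. WT MPTP lay below WT PBS by a difference of -0.85 on the log2(FPKM + 1) scale, and KO MPTP lay above KO PBS 1 by 0.19. The difference between these was 1.04. This value was among those that led to the gene being singled out, so it is given with no test. The KO difference ran from -0.05 to 0.22 over 15 alternatives and kept its sign in 13 of them, whereas the WT difference ran from -0.92 to -0.76 and the difference between the 2 from 0.74 to 1.13.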

How the results depend on the processing

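The count of members that passed (0 of 38 in each of the 6 comparisons) stayed 0 under pseudocounts of 0.1 and 0.5, no filter, quantile normalization and leaving out genes off the column relations. For MPTP in KO it was 1 (Lars2) with a filter of 5 FPKM, with TMM rescaling and with KO PBS 2 counted as KO PBS, and it ran from 0 to 1 when 1 replicate was left out: 1 without WT PBS 1 or WT PBS 2, and 0 without KO PBS 1. With all 12 columns taken as libraries, which counts computed columns as replicates, the counts were 9 for MPTP in WT, 1 and 6 for genotype under PBS and MPTP, and 1 with treatments pooled, and 0 for MPTP in KO and the interaction. The replicate block gave 0 members in every comparison; the deviations of the PBS profiles correlated between genotypes by number at r = 0.23 over 10636 genes, with too few pairs to show that numbers pair samples. Of 1978 values of single members under alternatives, 1748 stayed on their side of the threshold and moved by less than their standard error (129 of these with the other sign), 14 became called, 0 lost a call and 216 moved by more, 104 of them with the other sign. These 1978 values are of the members named by rule or after their values were seen, not of all 39. In part of them the difference could not move, because the alternative changed only which other genes or profiles entered the fit. For MPTP in WT, Lars2 stayed at -0.2744 with no filter and with a filter of 5 FPKM. The count of 1748 therefore overstates how far the values were put to a test. Aarsd1 is among them, judged by the size of its move alone, with no threshold. The median of the 38 members changed sign under at least 1 alternative in 4 of the 6 comparisons. It ran from -0.005 to 0.1245 for MPTP in KO and from -0.0786 to 0.0134 for genotype under PBS. Over all genes, where 8 to 31 were called by comparison, 0 were called in any comparison with no filter, and 21 to 2150 with all 12 columns. Leaving out genes off the column relations lowered the count over all genes in each of the 6 comparisons, from 8 to 1 with treatments pooled. The shares of all genes set beside the members therefore depend on whether those genes are kept. Unknown depth limits what can be said of the low members.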
